A study of Mus musculus with 20 samples.

Results

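The transcripts described here encode 7 subunits of the GABA-A receptor: the alpha subunits Gabra2, Gabra3, Gabra4 and Gabra5, the beta subunits Gabrb1 and Gabrb2, and the gamma subunit Gabrg3. They were chosen by gene symbol, from a fixed list of 7 names drawn up with earlier results of these data known. All 7 were present in each of the 4 deposited tables, which together hold 14700 gene symbols. Counts of the 7 set beside all genes therefore describe them and are not independent support. The values came from RNA sequencing of 20 libraries. Each was made from cultured cortical neurons of the mouse, prepared from cortices at embryonic day 15 and cultured for 7 days. The 4 groups held 5 libraries each. N_WT was wild type in normoxia with 25 mM glucose and pyruvate. OGD_WT was wild type under oxygen and glucose deprivation, at 1% oxygen in medium without added glucose. N_KO and OGD_KO were the same 2 conditions in cultures that lack ciRS-7, a circular RNA made from Cdr1as. Every treatment lasted 12 h, and the strain label was C57BL/6N-Cdr1asem1Nikr for all 4 groups, the wild-type cultures included. The allele belongs to the mouse strain and was not limited to 1 cell type, and these were dissociated cultures, not brain tissue. The labels do not say whether the cultures came from separate litters, so p-values measure the spread between these libraries.

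GABA-A receptors are chloride channels that open when they bind GABA, the main inhibitory transmitter of the cortex. Each channel is built from several subunits, usually alpha, beta and gamma. GABA binds between an alpha and a beta subunit, and the alpha subunit sets much of the affinity for GABA, the drug sensitivity and the place of the receptor on the neuron. In embryonic cortex, where chloride inside neurons is still high, GABA can depolarise the cell. Which subunits a neuron transcribes changes as it matures.

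All 7 subunit transcripts were lower under deprivation than in normoxia, in wild-type and in knockout cultures. In OGD_WT against N_WT, 7 of 7 were called lower, where 22.8% of all 14235 genes were, and the median log2 fold change of the 7 was -1.01 beside -0.03 for all genes. In OGD_KO against N_KO, 7 of 7 were called lower, where 19.9% of all 14375 genes were, with a median of -1.07 beside 0.0. A gene was called where its limma p, after Benjamini-Hochberg adjustment over the whole table, was below 0.05. Expression is given as log2 CPM on the authors' scale, where CPM is the read count of a gene relative to the size of its library. In both genotypes Gabrb1 fell most, and the falls of Gabra2, Gabra4 and Gabrg3 were the smallest of the 7. No subunit was called between knockout and wild-type cultures in either condition.

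**Figure D1:**
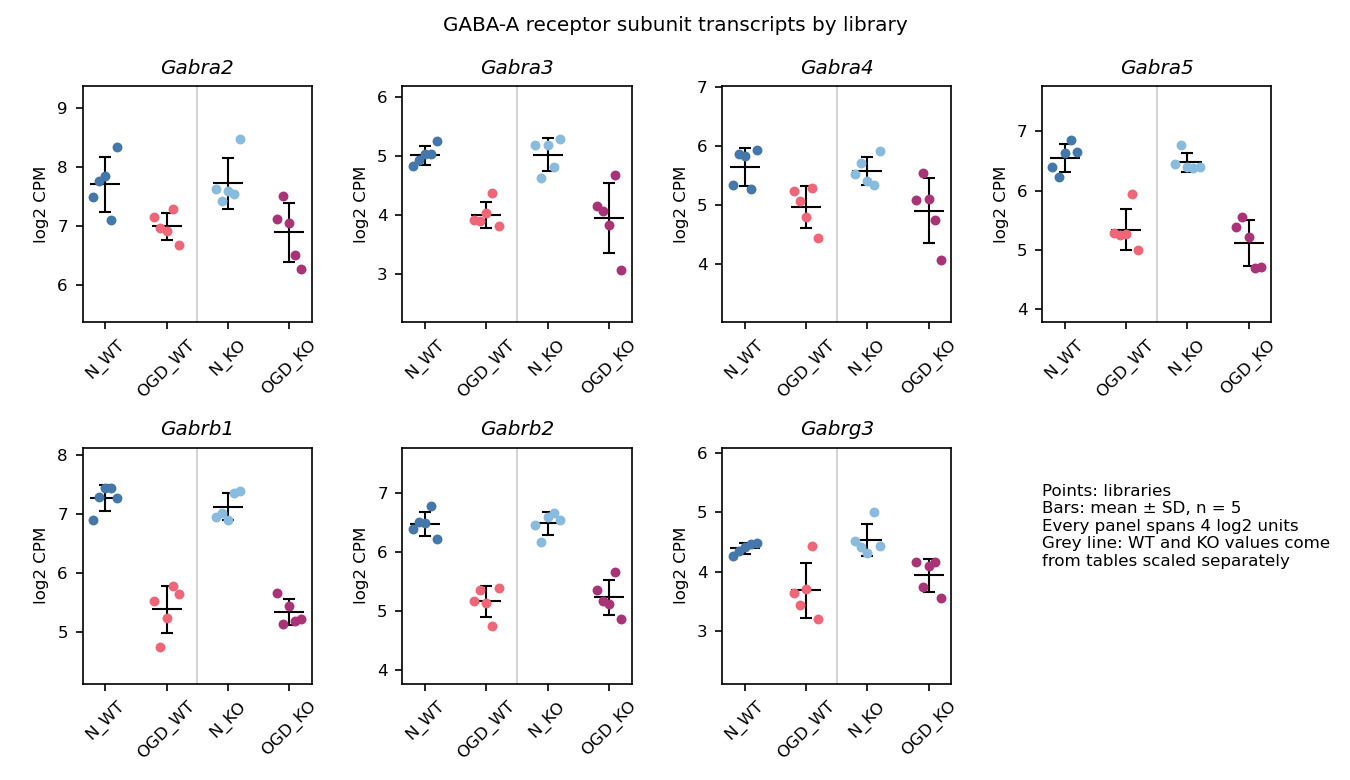
Log2 CPM of the 7 subunit transcripts in each library of the 4 groups, with points for libraries and bars for mean ± SD (n = 5). In every panel the mean of the deprived group lies below that of its normoxic group, and for Gabrb1, Gabrb2 and Gabra5 the points of the 2 conditions do not overlap in either genotype.

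Gabra2 encodes an alpha subunit common in forebrain synapses on the axon initial segment and in the embryonic cortex. Its level in N_WT cultures 1 to 5 was 7.48, 7.75, 7.84, 7.09 and 8.34 log2 CPM, and in the OGD_WT libraries of the same cultures 7.14, 6.96, 6.91, 7.29 and 6.68. It was lower under deprivation in 4 of 5 cultures, and the groups overlapped, since culture 4 was higher under deprivation than in normoxia. The log2 fold change was -0.71 (SE 0.19, adjusted p = 0.00449). In the knockout it was 7.62, 7.41, 7.58, 7.53 and 8.47 in normoxia and 7.11, 7.51, 7.04, 6.5 and 6.26 under deprivation. Again 4 of 5 cultures were lower, culture 2 was not, and the groups overlapped. This fall was -0.84 (SE 0.23, adjusted p = 0.00675). Culture 5 of either genotype had the widest gap for Gabra2. Without culture 5 the fall was -0.47 in wild type (adjusted p = 0.0125) and -0.49 in the knockout (adjusted p = 0.018).

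Gabra3 encodes an alpha subunit typical of developing cortex and of monoaminergic nuclei. N_WT libraries held 4.82, 4.93, 5.03, 5.03 and 5.25 log2 CPM and OGD_WT libraries 3.91, 3.89, 4.03, 4.37 and 3.81. The wild-type groups did not overlap. Its fall of -1.01 (SE 0.15, adjusted p = 1.42e-05) corresponded to 49.6% of the normoxic level. N_KO libraries held 5.18, 4.63, 5.18, 4.81 and 5.29 and OGD_KO libraries 4.15, 4.06, 3.82, 4.67 and 3.06. Every knockout culture was lower under deprivation, although culture 4 fell so little that its deprived library reached into the normoxic range. The fall was -1.07 (SE 0.22, adjusted p = 0.000988).

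Gabra4 encodes an alpha subunit found largely in receptors outside the synapse, which carry tonic inhibition. N_WT libraries held 5.34, 5.87, 5.84, 5.27 and 5.94 log2 CPM and OGD_WT libraries 5.24, 5.07, 4.8, 5.3 and 4.45. Culture 4 was 0.03 higher under deprivation, and the groups overlapped. The fall was -0.68 (SE 0.18, adjusted p = 0.00414). N_KO libraries held 5.53, 5.71, 5.41, 5.35 and 5.92 and OGD_KO libraries 5.09, 5.55, 5.1, 4.75 and 4.07. All 5 knockout cultures were lower, with changes from -0.16 to -1.85 and overlapping groups. The fall of -0.67 (SE 0.21, adjusted p = 0.0162) had the highest adjusted p of the 14 treatment calls. Without knockout culture 5 it was -0.38 (adjusted p = 0.0603) and without knockout culture 4 it was -0.69 (adjusted p = 0.0514), so neither of these passed.

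Gabra5 encodes the alpha subunit of extrasynaptic receptors best known from hippocampus, where they act in learning. N_WT libraries held 6.4, 6.23, 6.63, 6.85 and 6.66 log2 CPM and OGD_WT libraries 5.28, 5.25, 5.26, 5.94 and 4.99. The groups did not overlap. The level under deprivation was 43.2% of that in normoxia, a log2 fold change of -1.21 (SE 0.17, adjusted p = 9.43e-06). N_KO libraries held 6.45, 6.77, 6.4, 6.38 and 6.4 and OGD_KO libraries 5.38, 5.55, 5.21, 4.69 and 4.7. These did not overlap either, and the level fell to 38.5%, a change of -1.38 (SE 0.17, adjusted p = 7.09e-06).

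Gabrb1 encodes a beta subunit, which forms the GABA site together with alpha and carries sites for kinases that regulate the receptor. N_WT libraries held 6.91, 7.3, 7.44, 7.45 and 7.27 log2 CPM and OGD_WT libraries 5.53, 4.76, 5.24, 5.78 and 5.65. The lowest normoxic library stood more than 1 log2 unit above the highest deprived one. The level fell to 27.1%, a change of -1.88 (SE 0.18, adjusted p = 5.27e-08), the fall of rank 34 among 14235 genes. N_KO libraries held 6.95, 7.02, 6.91, 7.36 and 7.39 and OGD_KO libraries 5.67, 5.15, 5.45, 5.19 and 5.23, again without overlap. The level fell to 29.0%, a change of -1.79 (SE 0.15, adjusted p = 1.01e-07) and rank 31 among 14375 genes.

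Gabrb2 encodes the beta subunit most abundant in adult cortex. N_WT libraries held 6.38, 6.5, 6.48, 6.78 and 6.21 log2 CPM and OGD_WT libraries 5.17, 5.36, 5.13, 4.75 and 5.38. No deprived library reached the normoxic range. The fall was -1.31 (SE 0.15, adjusted p = 1.03e-06). N_KO libraries held 6.45, 6.17, 6.59, 6.66 and 6.54 and OGD_KO libraries 5.36, 5.16, 5.11, 5.66 and 4.86. The knockout groups were also apart, with a fall of -1.25 (SE 0.16, adjusted p = 8.43e-06).

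Gabrg3 encodes a gamma subunit; gamma subunits link the receptor to the postsynaptic scaffold and form part of the benzodiazepine site. N_WT libraries held 4.26, 4.35, 4.41, 4.46 and 4.49 log2 CPM and OGD_WT libraries 3.64, 3.43, 3.71, 4.43 and 3.19. The groups overlapped through culture 4 alone, whose deprived library was within 0.03 of its normoxic one. The fall was -0.71 (SE 0.18, adjusted p = 0.00312). N_KO libraries held 4.51, 4.41, 4.32, 5.01 and 4.44 and OGD_KO libraries 4.16, 3.73, 4.09, 4.16 and 3.55. The knockout groups did not overlap, and the fall was -0.60 (SE 0.17, adjusted p = 0.00778).

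The groups did not overlap, with the deprived one lower, for 4 of the 7 subunits in wild type (Gabra3, Gabra5, Gabrb1 and Gabrb2), against 13.1% of all genes. They did not overlap for 4 of 7 in the knockout (Gabra5, Gabrb1, Gabrb2 and Gabrg3), against 12.4% of all genes. Between 47 and 5772 reads stood behind each subunit in a library. The sizes depend on the scaling. The deposited scale is not that of plain library totals. With CPM of the plain library total, an alternative added after seeing the data, the median of all genes shifted to -0.302 in wild type and -0.282 in the knockout. The calls over all genes then changed from 3069 higher and 3244 lower to 1625 higher and 5744 lower in wild type, and from 3021 higher and 2863 lower to 1479 higher and 5289 lower in the knockout. All 7 subunits were lower under both scalings, with Gabra4 at -0.96 and Gabrb1 at -2.17 in wild type on the second.

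**Figure D2:**
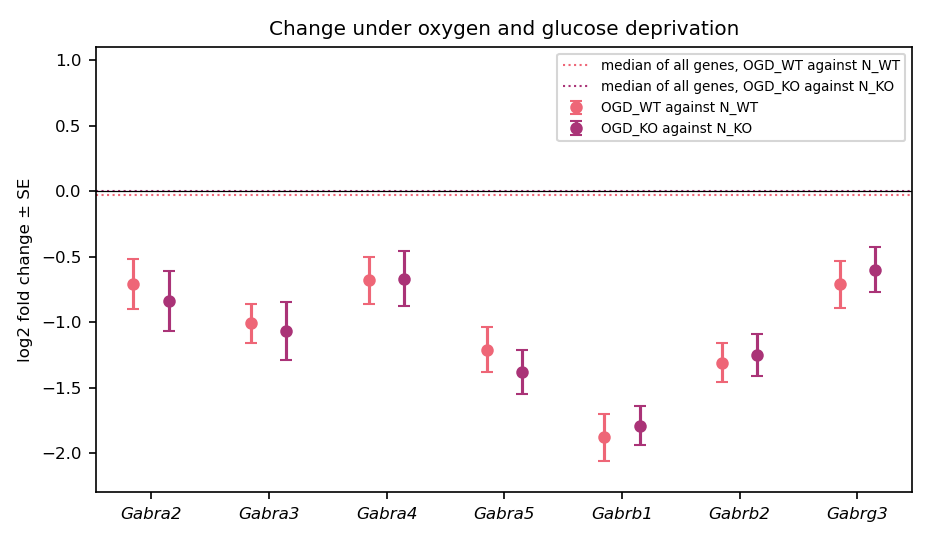
Log2 fold change ± SE of each subunit transcript under oxygen and glucose deprivation, in wild-type (OGD_WT against N_WT) and knockout (OGD_KO against N_KO) cultures, with the median of all genes as dotted lines. All 14 values lie between -1.88 and -0.60, and Gabrb1 is the lowest in both genotypes.

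Depth and scaling cancel in a ratio of 2 transcripts of the same library. Of the 21 pairs, 3 were compared: 2 alpha transcripts, 2 beta transcripts and 2 neighbours of 1 gene cluster. In each of the 4 comparisons, 5 libraries were set against 5 in an exact permutation test (two-sided), with adjustment over the 12 tests. The smallest p such a test can give is 0.00794. The log2 ratio of Gabra4 to Gabrb1 was -1.62 ± 0.33 (SD, n = 5) in N_WT and -0.42 ± 0.54 in OGD_WT. No deprived library overlapped the normoxic ones, and the ratio rose by 1.21 (exact p = 0.00794, adjusted p = 0.0476). In the knockout it went from -1.54 ± 0.27 to -0.43 ± 0.56, a rise of 1.12 (exact p = 0.00794, adjusted p = 0.0476). All 5 cultures of each genotype rose, and an exact paired sign-flip test gave p = 0.0625 in both, the smallest it can give. Gabrb1 thus lost more of its transcript than its chromosomal neighbour Gabra4 in both genotypes. In wild type these 2 had the largest and the smallest fall of the 7 (-1.88 and -0.68). The 7 were listed with earlier results known, so the ratio describes these falls and is not independent support. Between genotypes the difference in this ratio was 0.08 for normoxic cultures (exact permutation p = 0.595). For deprived cultures it was -0.01 (exact permutation p = 0.937).

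The other ratios did not pass the adjustment. The ratio of the beta transcripts, Gabrb2 to Gabrb1, was -0.81 ± 0.21 in N_WT and -0.23 ± 0.58 in OGD_WT, a difference of 0.58 (exact permutation p = 0.0635, adjusted 0.127). In the knockout it was -0.64 ± 0.23 and -0.11 ± 0.36, a difference of 0.54 (exact permutation p = 0.0238, adjusted 0.0952). The ratio of Gabra5 to Gabra2 was -1.15 ± 0.56 in N_WT and -1.65 ± 0.18 in OGD_WT, a difference of -0.51 (exact permutation p = 0.0556, adjusted 0.127). In the knockout the difference was -0.54 (exact permutation p = 0.0476, adjusted 0.127). Its normoxic libraries spread over more than 1 log2 unit in either genotype.

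**Figure D3:**
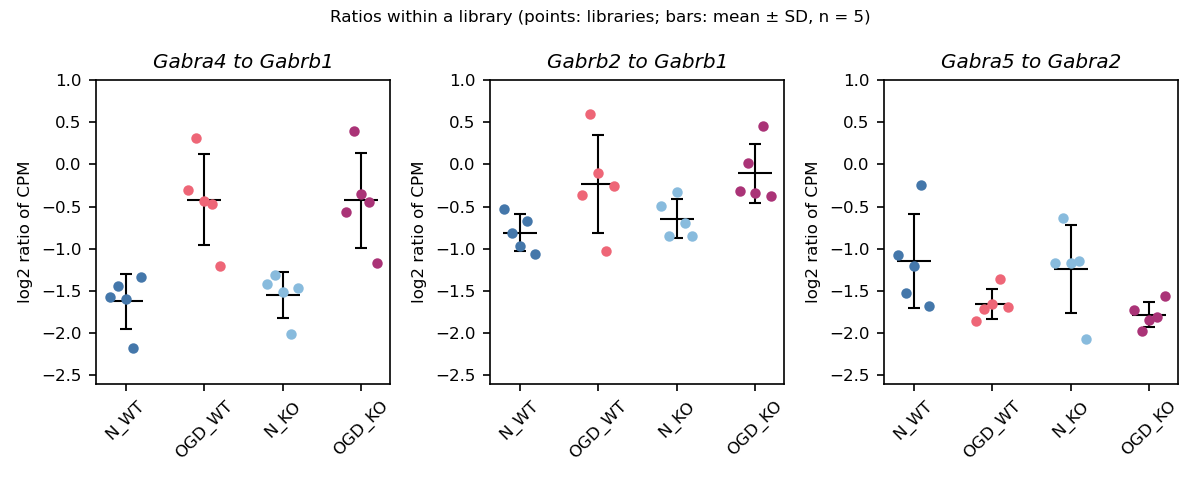
Log2 ratio of CPM of 3 pairs of subunit transcripts within each library of the 4 groups, with points for libraries and bars for mean ± SD (n = 5). For Gabra4 to Gabrb1 the deprived libraries, from -1.2 to 0.31 in wild type, all lie above the normoxic ones, from -2.18 to -1.33.

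Gabra4 and Gabrb1 lie head to head on mouse chromosome 5. On GRCm38 (mm10, GENCODE release 21) Gabra4 spans chr5:71569749-71658308 on the minus strand and Gabrb1 chr5:71658113-72149037 on the plus strand, so their first exons face each other and their spans share 196 bases. Their exons share 46 bases, which are 0.756% of the exon length of Gabra4 and 0.332% of that of Gabrb1. The library kit keeps strand, but no source used here states how strand was counted, so reads in these bases are uncertain. Gabra2 lies in the same cluster at chr5:70957597-71095849. Gabra5 (chr7:57407672-57510059) and Gabrg3 (chr7:56716465-57387188) are neighbours on chromosome 7, both on the minus strand, and 4.98% of the exon length of Gabra5 is shared with another gene. Gabrb2 is at chr11:42419757-42629028 on the plus strand and Gabra3 at chrX:72432681-72656848 on the minus strand. The genes span from 88.6 to 671 kb. Among the 2348 protein-coding genes at least as long as the shortest of them, 24.4% were called lower and 21.3% higher in OGD_WT against N_WT. Their median log2 fold change was -0.05, and of all coding genes 23.5% were called lower. In OGD_KO against N_KO 23.3% of the long genes were called lower and 19.3% higher, beside 20.4% of all coding genes called lower. The part of gene length in the results for the subunits was not tested.

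Sequence upstream of a start is shown for the neighbours Gabrb1 and Gabra4, whose ratio changed, and for Gabra5 and Gabrb2, which had the largest falls after Gabrb1. All 7 genes matched the RefSeq promoter table (GRCm38.p6), with 11 starts in all. For Gabrb1 and Gabrb2, which have several starts, the one printed has the most matches to the motifs named below. The first Gabrb1 start, which faces Gabra4, is not printed. The first and second Gabrb2 starts, also not printed, had no match. The RefSeq span of Gabra5 runs on to 57591016, upstream of its printed window, and the sequence before that end was not searched. Each window holds the 250 bases before a start, 5′ to 3′ on the strand of the gene, and that of Gabra4 is shortened to the 195 bases outside exons of Gabrb1. The 55 bases left out are those next to the Gabra4 start, so its printed stretch ends 55 bases before it. Capitals mark matches to 4 motifs searched on both strands: ACGTG (the core of the hypoxia response element), TGACGTCA (the cAMP response element), TGACTCA (the AP-1 site) and GCATGCGC (part of the NRF1 site). Matches to different motifs did not overlap in these windows.
Gabrb1, the second start, chr5:71699682-71699931, plus strand: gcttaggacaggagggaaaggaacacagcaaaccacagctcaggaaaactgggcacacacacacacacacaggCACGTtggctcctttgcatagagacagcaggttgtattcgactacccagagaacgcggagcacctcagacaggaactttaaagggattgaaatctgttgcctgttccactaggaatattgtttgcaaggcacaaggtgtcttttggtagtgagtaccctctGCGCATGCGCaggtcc
Gabra4, chr5:71658364-71658558, minus strand: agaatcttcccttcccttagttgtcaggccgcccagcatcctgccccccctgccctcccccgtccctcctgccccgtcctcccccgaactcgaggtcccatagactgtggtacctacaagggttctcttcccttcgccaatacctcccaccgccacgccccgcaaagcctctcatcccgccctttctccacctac
Gabra5, chr7:57510060-57510309, minus strand: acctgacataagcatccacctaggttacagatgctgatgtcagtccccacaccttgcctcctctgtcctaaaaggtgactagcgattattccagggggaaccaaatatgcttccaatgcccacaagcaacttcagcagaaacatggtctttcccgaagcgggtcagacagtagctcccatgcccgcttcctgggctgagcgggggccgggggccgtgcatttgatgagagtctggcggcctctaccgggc
Gabrb2, the third start, chr11:42420951-42421200, plus strand: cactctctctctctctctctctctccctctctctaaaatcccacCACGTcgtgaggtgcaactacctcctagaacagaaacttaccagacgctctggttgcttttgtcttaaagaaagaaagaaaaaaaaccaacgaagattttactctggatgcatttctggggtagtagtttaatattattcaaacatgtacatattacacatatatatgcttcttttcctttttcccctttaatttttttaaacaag

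The letters ACGTG, or their reverse complement, were in 3 of the 11 windows, belonging to Gabrb1 (both starts) and Gabrb2, and in 21.5% of the 13374 windows of measured genes. GCATGCGC was in 1 of the 11, that of the second Gabrb1 start, and in 4.25% of all windows. TGACGTCA and TGACTCA were in none of the 11, and in 2.62% and 2.79% of all windows. The files do not say which start was used in these cultures.

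Levels were also compared between subunits per length of exon, taken as the union of all exons of a gene in GENCODE release 21. The annotation behind the read counts is not known, so the order and the shares below depend on this length. Without it, mean log2 CPM in N_WT was 7.7 for Gabra2 and 7.28 for Gabrb1, above 6.55 for Gabra5. On the scale of CPM of the library total per kb of exon, Gabra5 (35.0 ± 5.46, SD, n = 5) and Gabra2 (31.2 ± 9.8) were highest in N_WT, and their ranges overlapped. Gabrb2 (15.4 ± 2.34) and Gabrb1 (12.4 ± 1.86) came next, then Gabra4 (9.23 ± 2.02) and Gabra3 (8.99 ± 0.921). From Gabrb2 to Gabra3 each range overlapped with the next, while Gabra2 and Gabrb2 did not overlap. Gabrg3, at 1.91 ± 0.117, stood apart below the others. In OGD_WT the order was Gabra2 (15.2 ± 2.04), Gabra5 (12.5 ± 2.87), Gabrb2 (5.14 ± 1.02), Gabra4 (4.72 ± 1.01), Gabra3 (3.63 ± 0.456), Gabrb1 (2.8 ± 0.676) and Gabrg3 (0.978 ± 0.317). By its mean Gabrb1 was thus ranked above Gabra4 and Gabra3 in normoxia and below both under deprivation. Its range overlapped with those of Gabra4 and Gabra3 in both conditions, from 1.8 to 3.36 in OGD_WT beside 3.3 to 5.66 for Gabra4, so this order of levels does not separate them. The means of Gabrb1 in N_KO and OGD_KO, 11.2 ± 1.67 and 2.66 ± 0.528, had the same places in the order.

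Among the 4 alpha transcripts, per length, Gabra5 made up 42.0% ± 7.84 (SD, n = 5) of the sum in N_WT and 34.5% ± 2.79 in OGD_WT, and Gabra2 36.4% ± 7.14 and 42.4% ± 2.11. Gabra3 and Gabra4 each made up between 10.1% and 13.0% in these groups. In the knockout Gabra5 went from 40.8% ± 7.05 to 32.0% ± 3.46 and Gabra2 from 37.6% ± 6.92 to 43.0% ± 3.23. These shares cover the 4 alpha transcripts described here and were not tested beyond the ratio of Gabra5 to Gabra2.

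**Figure D4:**
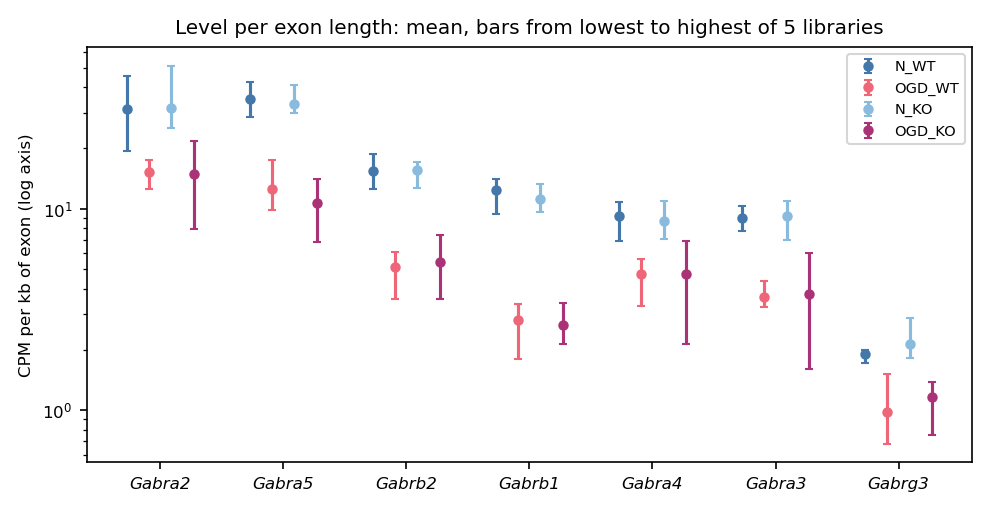
CPM of the library total per kb of exon for each subunit transcript, on a log axis, in the 4 groups, with points for the mean of 5 libraries and bars from the lowest to the highest. The mean of Gabrb1 lies above that of Gabra4 in normoxia (12.4 against 9.23 in N_WT) and below it under deprivation (2.8 against 4.72 in OGD_WT), with overlapping bars in both.

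Knockout and wild-type cultures were compared for the same transcripts in normoxia and under deprivation. Cdr1as had between 700 and 1365 reads in N_WT libraries and between 5 and 16 in N_KO libraries, and between 545 and 1912 in OGD_WT and 2 and 14 in OGD_KO. In N_KO against N_WT 0 of 7 subunits were called. The lowest unadjusted limma p was 0.221. Of all 14152 genes 0.0353% were called. The differences ran from -0.12 for Gabrb1 to 0.18 for Gabrg3, and their 95% intervals lay between -0.42 and 0.51, which covers no change of 1 log2 unit. In OGD_KO against OGD_WT 0 of 7 were called, beside 0.0282% of 14185 genes, and the lowest unadjusted limma p was 0.206. The differences ran from -0.22 for Gabra5 to 0.27 for Gabrg3, with intervals between -0.64 and 0.71. The ranges of the 2 genotypes overlapped for all 7 in both conditions.

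Whether deprivation acted differently in the knockout was tested as an interaction over the 20 libraries. No subunit was called, and no gene among 13688 was, although 100 genes had an unadjusted p under 0.05 in limma, none of the 7 among them. The difference of the 2 treatment effects, knockout minus wild type, ran from -0.18 for Gabra5 to 0.11 for Gabrg3. The 95% intervals lay between -0.85 and 0.70. For Gabra2 (-0.85 to 0.56) and Gabra4 (-0.69 to 0.69) they reached the size of the wild-type falls, -0.71 and -0.68. With 5 libraries a group, differences as large as the smaller falls themselves could thus not be excluded.

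**Figure D5:**
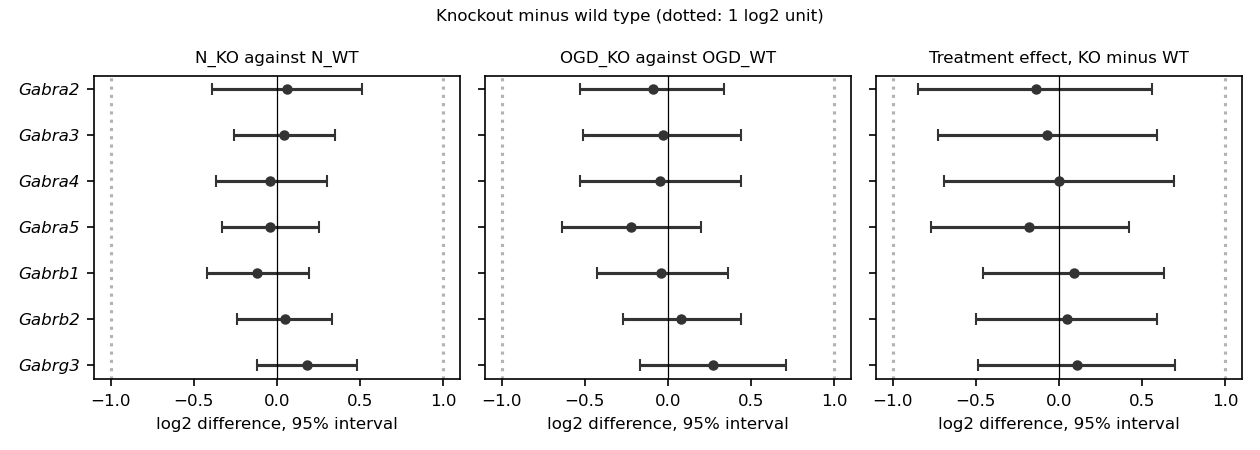
Log2 difference of each subunit transcript between knockout and wild type in normoxia (left), under deprivation (middle) and in its response to deprivation (right), with 95% intervals from limma. All 21 intervals include 0 and none reaches the dotted lines at 1 log2 unit.

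Other GABA-A receptor subunit genes moved in the same direction. In OGD_WT against N_WT 5 further subunit genes were measured, and 4 were called lower and none higher, with a median of -0.80. In OGD_KO against N_KO 5 of 6 were called lower, with a median of -0.82. Among them Gabrg1, a gamma subunit gene of the chromosome 5 cluster, fell by 0.55 (SE 0.18, adjusted p = 0.0142) in wild type and by 0.50 (SE 0.16, adjusted p = 0.0168) in the knockout. Gabrq, the theta subunit gene, is not in the table of OGD_WT against N_WT. In the knockout it fell by 0.60 (SE 0.20, adjusted p = 0.0234). Between genotypes none of the 6 measured in normoxia and none of the 5 measured under deprivation, where Gabrq was not in the table, was called.

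The other genes of GABA signalling are read beside all genes, of which 21.6% were called higher in OGD_WT against N_WT and 21.0% in OGD_KO against N_KO, beside the 22.8% and 19.9% called lower. Of 5 GABA-B receptor genes, 3 were called lower and 1 higher in wild type (median -0.46), and 3 lower and none higher in the knockout (median -0.64). Kctd12, an auxiliary subunit that speeds desensitisation, fell by 1.31 and by 1.65, and Gabbr2, the subunit that couples to G proteins, by 0.69 and by 0.81. Kctd16, another auxiliary subunit, was the one that rose, with 0.63 (SE 0.18, adjusted p = 0.00838) in wild type and 0.23 (SE 0.17, adjusted p = 0.29) in the knockout. The interaction for Kctd16 was -0.43 (SE 0.27, limma adjusted p = 1.0). Of 7 genes for the synthesis, release, uptake and breakdown of GABA, 2 were called lower and 1 higher in either genotype, with medians of -0.07 and -0.25. The GABA-making enzyme Gad2 fell by 0.52 and by 0.62, and Aldh5a1, which oxidises the product of GABA breakdown, by 0.72 and by 0.79. Slc6a11, a GABA transporter of glia, rose by 0.62 and by 0.40. With 2 and 1 of 7, the shares called in this group are near those of all genes.

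Of 11 genes of the inhibitory postsynaptic scaffold and its adhesion proteins, 5 were called lower and none higher in each genotype, with medians of -0.39 and -0.33. Lhfpl4, which binds GABA-A receptors and holds them at synapses, fell by 0.97 and by 0.99. Slitrk3, an adhesion protein of inhibitory synapses, fell by 0.80 and by 0.45, and Insyn2a, a protein of the inhibitory postsynapse, by 0.67 and by 0.66. Of 13 receptor trafficking genes 3 were called higher and 3 lower in each genotype, with medians of -0.02 and -0.10. Plcl1, which binds receptor beta subunits and their transport proteins, rose by 0.67 and by 0.64, the kinesin Kif21a rose by 0.64 and by 0.60, and the membrane fusion ATPase Nsf fell by 0.58 and by 0.65. Both shares among the trafficking genes are near those of all genes.

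Of 7 chloride transport genes, 1 was called lower and 1 higher in each genotype, with medians of 0.06 and 0.10. Slc12a5, the potassium chloride cotransporter that lowers chloride in maturing neurons, fell by 0.75 (SE 0.16, adjusted p = 0.000816) in wild type and by 0.85 (SE 0.15, adjusted p = 0.000238) in the knockout. Clcn2, a chloride channel, rose by 0.77 and by 0.75. None of the genes in these 5 groups was called between genotypes, in normoxia or under deprivation.

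Markers of neurons fell in part, and those of other cells differed in direction. Of 12 pan-neuronal markers 5 were called lower in wild type and 6 in the knockout, none higher, with medians of -0.35 and -0.55 on the authors' scale. In CPM of the library total, a scale on which the median of all genes is itself lower under deprivation, they summed to a median of 6880 in N_WT (6550 to 7820) and 4550 in OGD_WT (3590 to 5510), and to 7110 in N_KO and 4480 in OGD_KO. All 8 markers of excitatory neurons were called lower in each genotype, and their sum went from a median of 912 to 371 and from 894 to 370. Of 10 markers of inhibitory neurons 2 were called lower in each genotype and 1 higher in the knockout, with sums of 449 to 352 and 438 to 376. Astrocyte markers (7 measured of 8) summed to a median of 1230 and 1540 in N_WT and OGD_WT, and 1220 and 1480 in N_KO and OGD_KO. Of these 4 were called higher and 1, Gfap, lower in wild type, and 3 higher and none lower in the knockout. Cycling and progenitor markers (8 of 8) summed to 721 and 1130, and 746 and 1310, with 5 called higher in each genotype and 1, Eomes, lower in wild type. Oligodendrocyte lineage markers (7 measured of 8) summed to 333 and 344, and 294 and 343, with 1 called higher and 2 lower in wild type and 3 higher in the knockout. Gfap and Eomes are named after their values were seen. Of 8 microglia markers 7 were in no table, Cx3cr1 and P2ry12 among them. The 1 measured was absent from OGD_WT against N_WT and called higher in OGD_KO against N_KO. Of 6 endothelial and mural markers 3 were in no table, Cldn5 among them. Of the 2 measured in each treatment comparison, 1 was called higher and 1 lower in wild type, and 1 higher and 0 lower in the knockout. In bulk RNA, fewer neurons and less RNA per neuron cannot be told apart, and the part of these shifts in the results for the subunits was not tested.

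The 7 subunits summed to a median of 734 CPM in N_WT (601 to 832) and 268 in OGD_WT (251 to 323), and to 670 (650 to 904) and 295 (161 to 339) in the knockout. The lowest of these, OGD_KO culture 5, was also the OGD_KO library with the lowest sum of pan-neuronal markers, 3180. Its sums of excitatory markers (319) and of cycling and progenitor markers (930) were the lowest of OGD_KO as well. Set against the mean log2 level of the 12 pan-neuronal markers in the same library, a measure chosen after seeing the data, 4 of 7 subunits were lower in OGD_WT without overlap with N_WT, where 2.59% of 13688 genes were. Their relative differences were -1.42 for Gabrb1, -0.85 for Gabrb2, -0.75 for Gabra5 and -0.55 for Gabra3. In the knockout 2 of 7 were, Gabrb1 (-1.24) and Gabra5 (-0.83), where 1.8% of genes were. For Gabra2, Gabra4 and Gabrg3 the relative differences were between -0.28 and -0.05, with overlapping groups in both genotypes. No test was run on this measure. On the authors' scale the 8 excitatory markers had median log2 fold changes of -1.01 and -0.94, beside -1.01 and -1.07 for the subunits. The subunits were not set against the excitatory markers in this way.

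The subunits varied together across the 20 libraries, with Pearson correlations between 0.75 and 0.95 for their 21 pairs. With the mean of each group taken out, the correlations ranged from -0.16 to 0.87. These correlations describe libraries that share condition, depth and cell mixture. Among 12680 other genes, those whose level followed a subunit most closely over the 20 libraries included Icam5, a neuronal adhesion protein, for Gabra5 (r = 0.994), and Rgs7bp, which anchors regulators of G protein signalling, for Gabrb1 (r = 0.992). The potassium channel gene Kcnq5 also followed Gabrb1 (r = 0.987), with log2 fold changes of -1.85 and -1.67. Lmln (r = 0.979) and Snx10 (r = 0.975) were nearest to Gabra3, Kitl (r = 0.967) and Jmjd4 (r = 0.949) to Gabra4, and Jmjd4 (r = 0.954) and Trappc2 (r = 0.953) to Gabra2. Rwdd2a (r = 0.976) was among the nearest to Gabrb2, and Gad2 (r = 0.966) among those to Gabrg3.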

How the data were processed

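The authors deposited 1 table of log2 CPM per comparison, each scaled and filtered separately. The build is mm10 per the submitters' processing notes; aligner, counting, annotation, filter and scaling are not given in the sources used here. In each gene and group of 5 the deposited log2 values lay where clipping at the 10th and 90th percentile puts them (weights 0.6 and 0.4). This is inferred from the values, and it was undone: as deposited, between 45.5% and 92.8% of a library's values were whole reads, and afterwards at least 99.91% were (within 0.05 reads, up to 500 reads). Recovered reads per library ranged from 7071506 to 16658618.

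Each comparison was fitted in its own table on the log2 CPM with clipping undone, with limma 3.58.1 in R 4.3.3 (intensity trend, two-sided), checked on simulated data. The interaction used recovered reads of 13688 genes (prior count 2), as log2 CPM of the library total, with the culture as a block. The consensus correlation within cultures was -0.169. Without the block 158 genes had an unadjusted limma p under 0.05 for the interaction, beside 100 with it, and 0 were called in either fit. Levels per length and marker sums also used CPM of the library total, from the recovered reads of the same 13688 genes. Normoxic and deprived libraries of 1 number share genotype label and batch label, which pairs them, while the correlations of their deviations from the group means ran from -0.77 to 0.047. The main treatment fits carry no block, and a fit with it is an alternative. Alternatives changed clipping, scaling, prior count, filter, batches, block and single libraries. The batch labels were 1, 3.1, 3.2 and 3.3 in wild type and 1, 2, 3.1 and 3.3 in the knockout. Label 2 thus occurred only in the knockout and label 3.2 only in wild type, so batch and genotype are partly confounded. Batch 3 cultures here pool the labels 3.1, 3.2 and 3.3.

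Named genes were the 7 subunits, other subunit genes, up to 3 called genes per GABA pathway list with the largest change in OGD_WT against N_WT, and the 2 genes most correlated with each subunit. The subunits and lists were chosen with earlier results of these data known. Some genes, further GABA-A subunits among them, are counted but not reported by name here. Of exon words of 50 bases, up to 3.59% of a subunit's (Gabra5) occur in another gene.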

Additional observations from a re-analysis of the deposited data

Results flagged for a closer look

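Of 28 groups of 5 libraries examined, 3 had 1 library far from its group, where chance gives about 1 in 20 groups, or 1.4 here. All 3 were high values in N_KO libraries, of 3 different cultures. Gabra2 was at 8.47 log2 CPM in N_KO culture 5, beside 7.41 to 7.62 in the other 4. Gabra5 was at 6.77 in N_KO culture 2, beside 6.38 to 6.45. Gabrg3 was at 5.01 in N_KO culture 4, beside 4.32 to 4.51. Without culture 5 the fall of Gabra2 in the knockout was -0.49 (limma adjusted p = 0.018), while Gabra5 and Gabrg3 kept falls of at least 1.29 and 0.53 whichever culture was left out.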

How the results depend on the processing

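With the authors' clipping kept, the other scalings, priors, filters, batch 3 cultures alone and the replicate block, 7 of 7 subunits were called lower in both treatment comparisons and 0 of 7 in the genotype comparisons and the interaction. Leaving out a culture gave 7 in wild type and between 6 and 7 in the knockout (Gabra4 was lost without culture 4 or 5). Of 182 alternative values of the treatment effects 180 kept direction and call and 2 lost the call. In wild type, batch 3 cultures alone and leaving out culture 1 are the same fit, so its values are counted under both settings. Of 252 alternative values between genotypes none was called. With the replicate block 5681 genes were called in wild type beside 6313 without it, and 4829 in the knockout beside 5884, with all 7 subunits among them; in paired exact sign-flip tests, whose smallest p is 0.0625, no ratio passed (Gabra4 to Gabrb1 1.21 and 1.12, Gabrb2 to Gabrb1 0.54 and Gabra5 to Gabra2 -0.54 in the knockout, p = 0.125 for the latter pair).

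Over all genes, batch 3 cultures alone gave 2341 calls in OGD_KO against N_KO, with fewer libraries. In N_KO against N_WT, 5 calls became 9 with clipping kept, 3 with only genes averaging 1 log2 CPM or more, 2 in batch 3 and 11 with batch as a covariate, and 3 to 5 without single libraries. In OGD_KO against OGD_WT, 4 calls became 12 with clipping kept, 2 scaled by library total, 1 with a prior count of 0.5 and 17 with batch as a covariate, and 1 to 7 without single libraries. The cause was not tested. With clipping kept, Gabra5 to Gabra2 (-0.55) and Gabrb2 to Gabrb1 (0.61) passed in wild type, and Gabra4 to Gabrb1 between deprived genotypes was 0.03. Without single cultures the ranges in wild type and knockout were 1.07 to 1.47 and 0.97 to 1.32 for Gabra4 to Gabrb1, 0.37 to 0.81 and 0.38 to 0.67 for Gabrb2 to Gabrb1, and -0.63 to -0.35 and -0.80 to -0.34 for Gabra5 to Gabra2; with 4 libraries a group the smallest p is 0.0286. Between genotypes, in normoxia and under deprivation, they were -0.06 to 0.20 and -0.22 to 0.18, 0.08 to 0.23 and -0.08 to 0.33, and -0.25 to 0.13 and -0.18 to -0.06, in the same order.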
